A study of Mus musculus with 24 samples.

Results

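Transcript levels after 6 days on Matrigel were compared with those at day 0 in HBC-3 cells. This mouse hepatoblast line is able to form cells with traits of hepatocytes or of bile ducts. Matrigel is a gel of basement membrane proteins on which the cells were left to differentiate. The arrays of the comparison were chosen by title, 3 arrays of day 6 and 3 of day 0, each day with arrays lettered A, B and C, out of 24 arrays that cover day 0 and days 1 to 7. All cells came from the same line, with no genetic change or drug named in the labels. Before RNA was taken, the cells were freed of their STON+ feeder layer by trypsin and replating on plastic, and the day 0 cells were harvested the next morning. Amplified RNA was labelled with random primers, and each array carried a common Cy3 reference, made from HBC-3 cells before differentiation, beside the Cy5 target of its sample. Undifferentiated cells were thus in both channels at day 0. The labels do not say whether the 3 arrays of a day stem from independent cultures, and the p-values cover no more than the spread among arrays, part or all of which may be technical.

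Cells cultured on plastic spread and build actin stress fibres anchored at focal adhesions, while epithelial cells on a soft basement membrane gel tend to gather into compact groups with fewer such fibres. Lysosomes, the acid compartments in which proteins, lipids and sugars are broken down, are built under control of transcription factors of the TFEB family, and genes of DNA replication and mitosis are typically driven by E2F, NF-Y and related factors in dividing cells.

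Log ratios are read here as log2 of sample over reference. Neither the base nor the numerator of the ratio is stated with the deposited values; base 2 is likely from how far the values reach, and the sample is the likely numerator from the dyes in the labels. Each array was centred on its median. The day 0 arrays held values for 15310 to 19189 of 24157 features with SDs of 0.332 to 0.473, and the day 6 arrays for 13810 to 14363 features with SDs of 0.726 to 1.005. Across features, which are not independent replicates, the day 6 pair A and B had a correlation of 0.519, the pair A and C of 0.624 and the pair B and C of 0.58. At day 0 the correlation was 0.755 for A with B, 0.084 for B with C and -0.343 for A with C, which sets array C of day 0 apart from the others of its day. Day 6 arrays correlated with day 0 arrays at -0.284 to 0.129. The direction of the ratios is read from the dyes alone. If it were the reverse on all arrays, every rise would be a fall, and no setting tests that. As a narrower check, the counts and medians of most lists are given also with every day 0 ratio turned in sign. This is called the turned setting in what follows, and it bears only on a direction that differs between day 0 and the other days.

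Promoter sequences are shown first for lysosomal, replication and mitosis genes, lists in which most measured members passed the test in one direction. They come from RefSeq on the mouse assembly GRCm38.p6, cover 250 bases before the annotated start of transcription, and were searched for 2 short motifs on both strands. The first, CACGTG, is the palindromic E-box core that TFEB family factors bind, and it was looked for in lysosomal genes. Of 26 measured lysosomal genes 23 had a promoter in the table, and 9 of them (39.1%) held the motif, against 1854 of 27025 genes (6.9%) over the whole table. Among the 15 of these genes that rose at day 6, 6 held it, a share like that of all 23, so the motif did not set the risen genes apart. The stretches below are 100 bases long and belong to the 3 of these 6 with the largest rise, with the motif in capitals (Sgsh has no value on day 6 array A).
Ctsa: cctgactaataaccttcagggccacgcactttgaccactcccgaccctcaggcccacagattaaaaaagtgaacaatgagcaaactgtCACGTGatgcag
Ctsl: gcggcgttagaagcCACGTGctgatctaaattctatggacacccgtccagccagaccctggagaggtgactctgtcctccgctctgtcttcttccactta
Sgsh: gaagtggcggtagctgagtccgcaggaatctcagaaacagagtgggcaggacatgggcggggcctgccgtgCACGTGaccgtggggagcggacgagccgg

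These lie at chr2:164833673-164833772 (+ strand), chr13:64370671-64370770 (- strand) and chr11:119355511-119355610 (- strand), and the motif begins 12 bases before the start in Ctsa, 236 in Ctsl and 29 in Sgsh. Hexa and Manba, which rose as well, have no CACGTG in the window, which says only that these letters are not there. Of 11 measured subunits of the vacuolar ATPase 8 had a promoter, and 2 (25.0%) held the motif, neither of them among the subunits that changed.

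The second motif, CCAAT, or ATTGG on the other strand, is the core bound by NF-Y, and it was looked for in genes of DNA replication and mitosis. A match of CACGTG cannot overlap a match of CCAAT or ATTGG, since no end of it equals a beginning of either, or the reverse. CCAAT and ATTGG share the letters AT and can overlap each other, and a gene with either was counted 1 time. It was present in 10133 of 27025 genes (37.5%), in 18 of 26 replication genes (69.2%) and in 22 of 30 mitosis genes (73.3%). Among genes that fell at day 6, 11 of 16 replication genes and 14 of 19 mitosis genes with a promoter held it. These shares are like those of the whole lists, so the motif did not set the fallen genes apart. The stretches below are those of the replication genes Rrm2 and Rpa3 and the mitosis genes Cks2 and Ube2c, the largest falls among members that hold the motif (Rpa3 and Ube2c have no value on day 6 array B).
Rrm2: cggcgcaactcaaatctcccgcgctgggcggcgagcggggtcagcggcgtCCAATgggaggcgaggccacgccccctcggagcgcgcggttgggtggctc
Rpa3: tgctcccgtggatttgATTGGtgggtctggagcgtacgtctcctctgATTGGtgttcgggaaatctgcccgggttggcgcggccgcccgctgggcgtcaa
Cks2: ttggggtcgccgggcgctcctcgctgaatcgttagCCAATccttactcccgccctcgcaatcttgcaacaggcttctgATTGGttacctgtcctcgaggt
Ube2c: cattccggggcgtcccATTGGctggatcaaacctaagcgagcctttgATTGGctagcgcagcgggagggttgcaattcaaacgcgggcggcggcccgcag

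They lie at chr12:24708154-24708253 (+ strand), chr6:8259144-8259243 (- strand), chr13:51645132-51645231 (+ strand) and chr2:164769825-164769924 (+ strand). In Rpa3, Cks2 and Ube2c the printed stretch holds 2 matches. A match describes the sequence and is no measured binding site.

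By day 6, most measured transcripts of lysosomal proteins had risen above day 0, and most of those of mitosis and DNA replication had fallen. Of 10639 units tested, each a gene or a feature without a gene name, 2642 passed an adjusted p of 0.05 (24.8%; limma, n = 3 arrays a day). Of these 1300 (12.2%) were higher at day 6 and 1342 (12.6%) lower, and 1429 were named genes, 776 of them higher and 653 lower. The 3 day 6 arrays did not overlap the 3 day 0 arrays in 3167 of the 8623 units with all 6 values (36.7%). The median change over all units was -0.015 and the median standard error 0.317, both on the log2 scale. In the turned setting 1776 units passed, 800 higher and 976 lower, and 1138 of them were among the 2642. Without day 0 array B 1531 units passed, and with only days 0 and 6 in the fit 1449.

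Among genes that passed with a value on all 6 arrays, the 10 largest rises included Clu, Selenop, Lbp and Dcn, which encode secreted proteins. In what follows, values on single arrays are given in the order A, B and C, changes are fitted day 6 means minus day 0 means with their standard error, and all are on the log2 scale. Clu, the gene of the secreted chaperone clusterin, stood at -1.04, -1.45 and -0.30 at day 0 and at 5.19, 6.13 and 6.55 at day 6. The groups lay far apart, and the fitted change was 6.89 ± 0.54, a 118.2-fold rise (adjusted p = 9e-08, limma). Selenop, which encodes the selenium carrier that liver secretes into plasma, moved from -0.78, -1.14 and -0.56 to 4.01, 3.91 and 4.54, a rise of 4.98 ± 0.47 (adjusted p = 1.07e-06) with the 3 day 6 arrays close together. Lbp, the gene of an acute phase protein that binds bacterial lipopolysaccharide, moved from -1.33, -0.88 and 0.00 to 3.35, 3.56 and 4.93, a rise of 4.68 ± 0.56, highest on array C.

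Nrep, which encodes a small protein named for nerve regeneration, stood at -2.23, -1.73 and -0.34 and then at 2.06, 3.90 and 4.11, a rise of 4.79 ± 0.69 (adjusted p = 0.000121). Dcn, the gene of the matrix proteoglycan decorin, stood at -2.72, -3.34 and -0.54 at day 0 and at 3.02, 0.98 and 3.41 at day 6. Its rise of 4.67 ± 0.69 rests in part on day 0 arrays A and B, which lay far below array C, and day 6 array B lay about as far below arrays A and C. On the B arrays of days 5 and 7 Dcn stood at 4.11 and 4.37. Decorin is a product of fibroblasts too, and 5 of 13 measured fibroblast markers rose, as given below; their part in this rise was not tested.

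Ldhb, the lactate dehydrogenase subunit of oxidative tissues, moved from -1.11, -0.74 and 0.27 to 2.39, 2.44 and 3.93, a rise of 3.44 ± 0.58. Ctla2b, a gene of a cysteine protease inhibitor, rose by 3.81 ± 0.52, from -1.27, -1.40 and -0.07 to 1.98, 2.80 and 3.90. Both were highest on array C of day 6. All 10 rises were chosen from genes without overlap between the days, so the lack of overlap is no separate result. Dtx4 and Tgfbi rose by 3.54 and 3.23, more than Il33. They are not among the 10, since Dtx4 has no value on day 6 array A and Tgfbi none on day 6 array C. Pnrc1, a nuclear receptor coregulator gene, rose by 3.32 ± 0.51 from -0.98, -1.11 and -0.25 to 2.26, 1.85 and 3.53. Il33, the gene of a nuclear alarmin cytokine, rose by 3.22 ± 0.79 and stood at only 0.33 on array A of day 6 against 2.35 and 2.52 on arrays B and C. Bnip3, whose protein marks mitochondria for removal, rose by 3.26 ± 0.63 and is described with the autophagy genes. Of these 10 rises 6 still passed in the turned setting; Nrep, Dcn, Bnip3 and Il33 then stood at 1.93, 0.27, 1.53 and 0.24 (adjusted p = 0.0635, 0.833, 0.105 and 0.868). All 10 passed without any single array of day 0 or day 6.

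**Figure D1:**
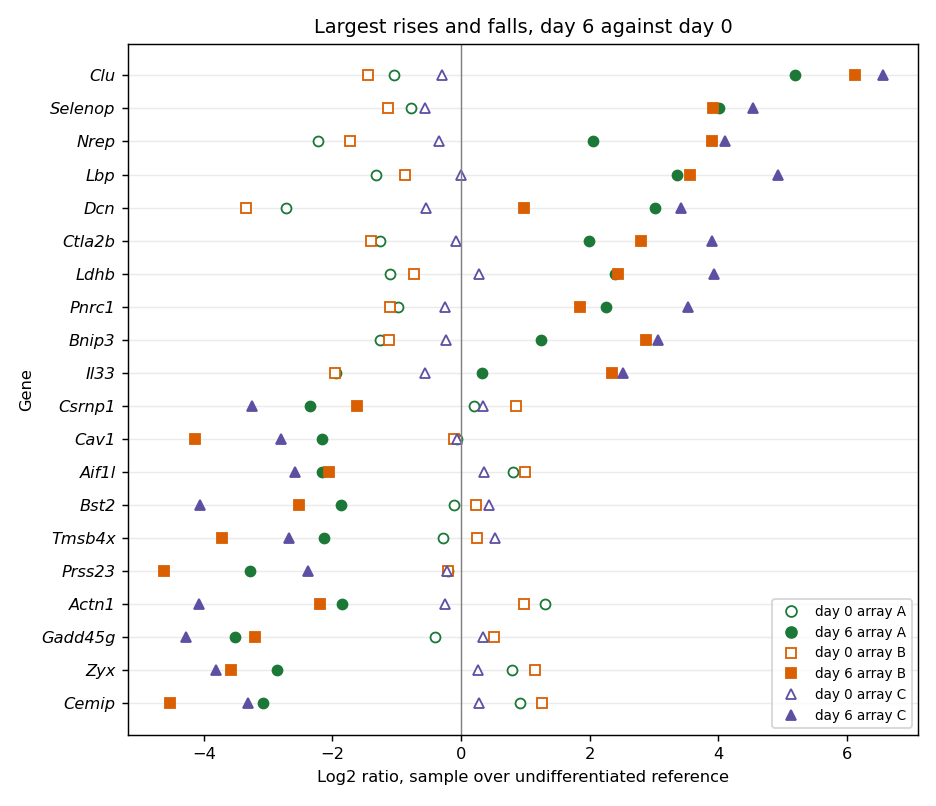
Log2 ratio of sample over undifferentiated reference (x axis) on each of the 3 day 0 arrays (open symbols) and 3 day 6 arrays (filled symbols) for the 10 largest rises and the 10 largest falls. These were taken from genes that passed with all 6 values and no overlap between the days. Day 0 values of the rising genes lie lower on arrays A and B than on array C, and the Dcn value of day 6 array B, 0.98, lies below those of arrays A and C.

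The 10 largest falls, chosen in the same way, included Zyx, Actn1, Tmsb4x and Aif1l, whose products bind actin or sit at its anchor points. Cemip, whose product breaks down hyaluronan of the matrix, stood at 0.92, 1.25 and 0.27 at day 0 and at -3.08, -4.52 and -3.32 at day 6. It fell by 4.46 ± 0.44 (adjusted p = 2.13e-06), with array B lowest. Zyx, the gene of the focal adhesion protein zyxin, moved from 0.79, 1.14 and 0.26 to -2.86, -3.57 and -3.81 and fell by 4.14 ± 0.70 (adjusted p = 0.000313). Actn1, the gene of alpha-actinin, a crosslinker of actin filaments, moved from 1.30, 0.98 and -0.25 to -1.86, -2.20 and -4.07 and fell by 3.39 ± 0.73, lowest on array C. Prss23, a serine protease gene, was at -0.21, -0.21 and -0.22 on the day 0 arrays, which barely differed, and at -3.28, -4.62 and -2.39 at day 6, and fell by 3.22 ± 0.47.

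Gadd45g, a stress and growth arrest gene, fell by 3.82 ± 0.37, from -0.41, 0.52 and 0.34 to -3.51, -3.21 and -4.28 (adjusted p = 2.04e-06). Tmsb4x, the gene of the actin-binding peptide thymosin beta 4, moved from -0.28, 0.25 and 0.52 to -2.13, -3.72 and -2.68 and fell by 3.01 ± 0.38. Cav1, which encodes caveolin of the membrane pits called caveolae, moved from -0.06, -0.11 and -0.06 to -2.16, -4.14 and -2.80 and fell by 2.96 ± 0.36. For both, array B was the lowest of day 6. Bst2, the interferon-induced gene of tetherin, moved from -0.11, 0.23 and 0.43 to -1.86, -2.53 and -4.06 and fell by 3.00 ± 0.95 (adjusted p = 0.0262). Aif1l, which encodes an actin-bundling protein, fell by 2.98 ± 0.42, and Csrnp1, an early response gene of a nuclear protein, fell by 2.87 ± 0.52. Of these 10 falls, Actn1 and Bst2 no longer passed in the turned setting, at -2.03 and -2.63 (adjusted p = 0.061 and 0.0635). Bst2 also missed the threshold without any 1 of the day 0 arrays and without day 6 array C, where it stood at -2.38.

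Lysosomal transcripts rose together. Of 26 measured genes of lysosomal hydrolases and membrane proteins 17 rose and 0 fell (65.4%, against 12.2% higher over all units), with a median change of 1.39 against -0.015 over all units. With each day 6 array set against the day 0 mean, the list median was 1.61 for A, 1.32 for B and 1.38 for C. Hexa, the gene of the beta-hexosaminidase subunit that degrades gangliosides, stood at -0.68, -0.38 and 0.06 at day 0 and at 1.89, 2.75 and 2.43 at day 6 and rose by 2.69 ± 0.27 (adjusted p = 1.92e-06). Ctsb, the gene of the protease cathepsin B, moved from -0.24, -0.59 and -0.04 to 1.92, 2.84 and 2.51 and rose by 2.72 ± 0.27. Day 6 array B was the highest for both. The days did not overlap, as in 36.7% of units with all 6 values.

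Manba, the gene of lysosomal beta-mannosidase, rose by 2.53 ± 0.44, from -0.69, -0.98 and -0.21 to 1.61, 1.28 and 2.81. Ctsa, whose promoter is printed above and whose product, cathepsin A, protects other lysosomal enzymes, rose by 2.29 ± 0.37, from -1.09, -0.80 and 0.06 to 1.99, 1.23 and 1.83. Ctsl, of the protease cathepsin L, moved from -1.38, -1.11 and 0.22 to 1.26, 0.73 and 1.74 and rose by 2.00 ± 0.40. For Ctsa and Ctsl array B was the lowest of day 6 and array C the highest of day 0. Lamp2, a major protein of the lysosomal membrane, rose by 1.91 ± 0.26 (adjusted p = 3.82e-05). Lamp1, its close relative, with no value on day 6 array C, did not pass, at 0.30 ± 0.27, nor did the cholesterol exporter genes Npc1 and Npc2, at 0.69 and 1.18. Turned, the list had 13 of 26 higher and 0 lower, at a median of 0.94.

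The vacuolar ATPase, the proton pump that acidifies lysosomes, changed less evenly. Of 11 measured subunits 4 rose and 1 fell (45.5% called, against 24.8% of all units), at a median of 0.82. In the turned setting 2 rose and 1 fell, at 0.36. Atp6ap2, an accessory subunit, stood at -1.21, -0.88 and 0.20 and then at 1.46, 0.90 and 1.50 and rose by 1.91 ± 0.35. The other accessory subunit gene, Atp6ap1, rose by 1.54 ± 0.28, and Atp6v0d1 of the membrane sector rose by 1.39 ± 0.26. Atp6v0e moved the other way, from -0.03, -0.05 and -0.09 to -0.52, -1.74 and -0.51, and fell by 0.87 ± 0.28. Array B was the lowest of day 6, and without it the change was -0.46 (adjusted p = 0.164).

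Autophagy delivers cell contents to the lysosome. Of its 18 measured transcripts 10 rose and 0 fell (55.6%, against 12.2% higher over all units), at a median of 0.90. Bnip3 stood at -1.26, -1.11 and -0.23 at day 0 and at 1.25, 2.87 and 3.07 at day 6, lowest on array A. Its paralogue Bnip3l, likewise a receptor for the removal of mitochondria, moved from -0.87, -0.73 and -0.13 to 1.92, 1.37 and 2.13 and rose by 2.38 ± 0.26 (adjusted p = 3.98e-06). Nbr1, a cargo receptor gene, moved from -0.36, -0.59 and -0.13 to 1.28, 2.56 and 1.01 and rose by 1.97 ± 0.29, highest on array B. Map1lc3b, which encodes the LC3 protein of the autophagosome membrane, moved from -1.20, -1.06 and 0.19 to 1.35, 0.84 and 1.54 and rose by 1.93 ± 0.31. The kinase genes Pink1, Ulk2 and Ulk1 rose by 1.52, 1.27 and 0.96. Becn1 and Atg7, of the core machinery, stood at 0.58 and -0.12 and did not pass. Turned day 0 ratios left 7 of 18 risen at a median of 0.58, and Map1lc3b then stood at 0.55 (adjusted p = 0.234).

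**Figure D2:**
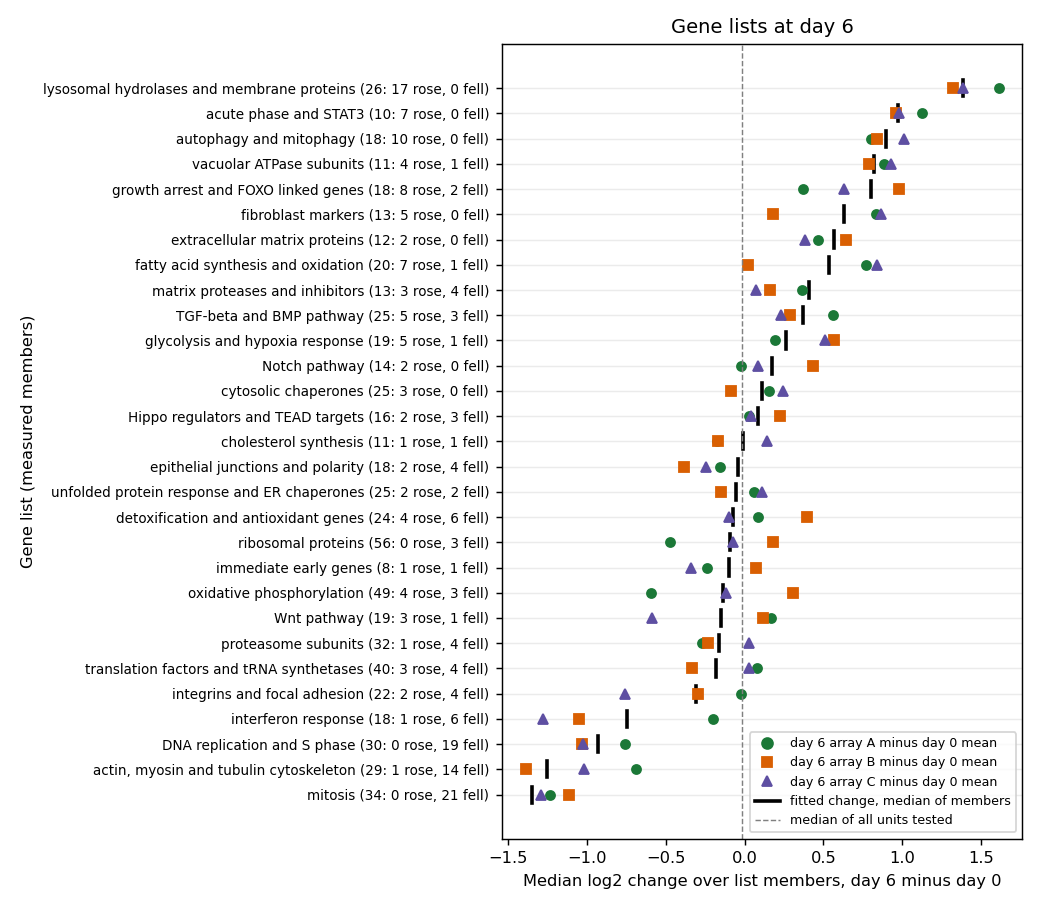
Median log2 change of the measured members of each gene list with at least 8 measured members, day 6 minus day 0. Black bars are medians of the fitted changes, coloured symbols the medians with each day 6 array set against the day 0 mean, and the dashed line the median over all units tested (-0.015). Lysosomal, acute phase, autophagy and vacuolar ATPase lists lie to the right on all 3 arrays, with medians of 0.82 to 1.39, and the mitosis, cytoskeleton and replication lists to the left, at -1.35, -1.26 and -0.93, while oxidative phosphorylation and ribosomal proteins lie on both sides of the line by array.

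Genes of DNA replication fell together. Of 30 measured, 19 fell and 0 rose (63.3%, against 12.6% lower over all units), with a median change of -0.93 and with 29 of 30 below 0. The medians on arrays A, B and C were -0.76, -1.04 and -1.03. Rrm2, the regulated subunit of ribonucleotide reductase, stood at 0.72, 0.31 and -0.65 at day 0 and at -1.91, -2.24 and -3.00 at day 6 and fell by 2.51 ± 0.50 (adjusted p = 0.00156). Tk1, the thymidine kinase gene of S phase, moved from -0.47, 0.05 and 0.74 to -1.95, -1.81 and -3.08 and fell by 2.39 ± 0.67. Cdc6, which loads the replicative helicase at origins, moved from 0.65, 0.90 and 0.09 to -1.25, -1.31 and -2.55 and fell by 2.25 ± 0.34. Array C was the lowest of day 6 for all 3. No day 6 array reached a day 0 array, as in 36.7% of units with all 6 values in either direction.

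Gmnn, the gene of the licensing inhibitor geminin, fell by 1.80 ± 0.30, from 0.20, 0.21 and -0.30 to -1.99, -1.68 and -1.64. Of the helicase subunit genes, Mcm2, Mcm5 and Mcm3 fell by 1.72, 1.64 and 1.10, while Mcm6 and Mcm7 stood at -0.42 and -0.47 and did not pass. The clamp loader genes Rfc1, Rfc2, Rfc4 and Rfc5 did not pass either, at -0.21, 0.28, -0.45 and -0.11, and Rfc3 fell by 0.61. Top2a, the topoisomerase gene of dividing cells, stood at -0.98, -0.78 and 0.29 at day 6 and was not called, at -0.36 ± 0.47. In the turned setting 13 of 30 fell and 0 rose, at a median of -0.68. The count was 13 without day 6 array C, 13 without day 0 array B and 12 with only days 0 and 6 in the fit.

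Of 34 measured mitosis transcripts 21 fell and 0 rose (61.8%), with a median change of -1.35. Cks2, the gene of a small subunit of cyclin-dependent kinases, stood at 1.37, 1.45 and -0.16 at day 0 and at -1.58, -1.60 and -2.67 at day 6 and fell by 2.83 ± 0.41. Day 0 array C lay well below arrays A and B there, and in the turned setting Cks2 stood at -1.06 (adjusted p = 0.0835). Ube2c, the ubiquitin-conjugating enzyme of mitotic exit, was at -1.77 and -2.65 on day 6 arrays A and C, had no value on array B, and fell by 2.68 ± 0.38. Mad2l1, of the spindle checkpoint, moved from -0.57, -0.52 and 0.06 to -2.23, -3.15 and -2.93 and fell by 2.43 ± 0.40. Anln, of the scaffold protein anillin of the cleavage furrow, moved from 0.37, 0.55 and 0.03 to -0.77, -2.41 and -2.50 and fell by 2.21 ± 0.41, with array A nearest to day 0.

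Among the mitotic kinases, Aurka, Plk1 and Cdk1 fell by 2.01, 1.70 and 1.46, and Cks1b fell by 2.18 ± 0.23 (adjusted p = 4.15e-06). Mki67, the gene of the proliferation marker Ki-67, stood at 0.02, 0.52 and 0.25 at day 0 and at -1.74, -1.90 and 0.24 at day 6. It was lower than day 0 on arrays A and B, not on array C, and was not called, at -1.40 ± 0.72 (adjusted p = 0.16). The count of falls was 21 of 34 in the turned setting too, at a median of -1.34, 15 without day 6 array C and 14 without day 0 array B.

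Of 18 growth arrest and FOXO-linked transcripts 8 rose and 2 fell (55.6% called, against 24.8% of all units), at a median of 0.80. Btg1, an antiproliferative gene, stood at -0.25, -0.72 and -0.27 at day 0 and at 2.09, 3.08 and 2.14 at day 6 and rose by 2.85 ± 0.27 (adjusted p = 1.5e-06), highest on array B. Sesn1, a stress-induced regulator of mTORC1, moved from -0.48, -0.45 and -0.34 to 2.20, 1.10 and 2.93 and rose by 2.50 ± 0.36, lowest on array B. Klf9, a transcription factor gene, rose by 2.07, and Trp53inp1, a p53 target with no value on day 0 array C, rose by 2.35. Cdkn1b, the gene of the cell cycle inhibitor p27, had no value on day 6 array A and rose by 1.18 ± 0.42. Txnip, a FOXO-linked regulator of glucose uptake, stood at 2.73, -0.17 and 2.00 at day 6, near its day 0 level on array B alone, and rose by 1.84 ± 0.54. The 2 that fell were Gadd45g and Klf6, the latter by 1.16. In the turned setting 4 rose and 2 fell, at 0.605, and without day 0 array B 5 rose and 1 fell. Of 8 immediate early genes 1 rose, Zfp36l1 by 2.15, and 1 fell, Ier5 by 0.95 (25.0% called, near the 24.8% of all units). Of the 2 features of Ier5 1 moved the opposite way.

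Of 29 measured genes of the actin, myosin and tubulin cytoskeleton 14 fell, 1 rose and 14 were not called (51.7% called, against 24.8% of all units). The median was -1.26, and the array medians were -0.69, -1.39 and -1.02. Beside Zyx, Actn1 and Tmsb4x, the tropomyosin gene Tpm2 moved from 0.08, 0.54 and 0.37 to -2.18, -2.80 and -1.90 and fell by 2.62 ± 0.42. Actb, the gene of beta-actin, stood at 1.40, 1.00 and -0.67 at day 0 and at -1.54, -1.14 and -3.22 at day 6 and fell by 2.54 ± 0.85 (adjusted p = 0.0325). Its day 0 arrays spread over more than 2 on the log2 scale, with array C below arrays A and B. Actg1, the gene of gamma-actin, stood at -1.26 ± 0.48 and was not called. The myosin light chain genes Myl12b and Myl6 fell by 2.07 and 1.78, and Arpc2, of the complex that branches actin filaments, rose by 1.27. In the turned setting 12 fell and 0 rose, at a median of -1.22, and without day 6 array B 10 fell and 0 rose.

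Integrin and focal adhesion genes were split, with 2 of 22 rising and 4 falling (27.3%, near the 24.8% of all units), and 1 and 4 in the turned setting, where the median went from -0.31 to -0.084. Itga3, a laminin receptor subunit, moved from 0.96, 1.26 and 0.46 to -0.87, -1.82 and -2.58 and fell by 2.65 ± 0.66. Vcl, of the focal adhesion protein vinculin, fell by 1.87 ± 0.45. Itgb5, a vitronectin receptor subunit, moved from -1.62, -1.59 and 0.35 to 1.86, 0.63 and 1.94 and rose by 2.44 ± 0.42. The day 0 values of Itgb5 differed far more between array C and the others than those of day 6 did, and in the turned setting it stood at 0.52 (adjusted p = 0.425). Of 18 transcripts of epithelial junctions and polarity 2 rose, the catenin gene Ctnnb1 and the polarity gene Llgl1, and 4 fell (33.3% called). Turned, 0 of 18 rose and 5 fell, and the median went from -0.045 to -0.21. Crb3, an apical polarity gene, moved from 0.03, 0.40 and 0.55 to -1.45, -1.85 and -1.45 and fell by 1.91 ± 0.32, and Pard6b and Prkci, which act in the Par complex, fell by 1.47 and 1.38. Gja1, the gap junction gene, fell by 0.97.

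Transcripts of STAT3 signalling and the acute phase rose in 7 of 10 measured genes (70.0%, against 12.2% higher over all units), with 0 falling and a median of 0.97. Il6st, which encodes the gp130 receptor chain shared by interleukin-6 family cytokines, moved from -0.19, -0.17 and 0.05 to 1.90, 1.05 and 2.36 and rose by 1.87 ± 0.36, lowest on array B. Its kinase genes Jak1, Jak2 and Tyk2 rose by 1.30, 0.94 and 0.82. Stat3 itself moved from -0.60, -0.38 and 0.55 to 1.04, 0.59 and 0.96 and rose by 1.01 ± 0.33 (adjusted p = 0.0293), and Socs3, the feedback inhibitor that STAT3 induces, moved from -0.82, -0.64 and 0.17 to 0.79, 1.26 and 1.51 and rose by 1.61 ± 0.46. Day 0 array C was the highest of its day for both. Neither overlapped between the days, as in 36.7% of units with all 6 values. Leaving out A or B of day 0, or C of day 6, left 4 of 10 risen each time. Turned, 5 of 10 rose at a median of 0.78; Stat3 and Socs3 then stood at 0.72 and 0.76 (adjusted p = 0.137 and 0.267), and with only days 0 and 6 in the fit 4 rose.

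Interferon response genes leaned the other way, with 6 of 18 falling and 1, Irf1, rising by 1.05 (38.9% called, against 24.8% of all units). Usp18, the gene of the protease that removes the ubiquitin-like protein ISG15, moved from -0.15, 0.38 and 0.38 to -1.87, -2.44 and -2.61 and fell by 2.51 ± 0.34 (adjusted p = 4.31e-05). Xaf1, a pro-apoptotic interferon target, moved from -0.93, 0.02 and 0.35 to -2.02, -2.86 and -2.80 and fell by 2.38 ± 0.33. Rsad2, the gene of the antiviral protein viperin, moved from -0.46, 0.02 and 0.16 to -2.69, -1.42 and -2.48 and fell by 2.10 ± 0.38, highest on array B of day 6. The groups did not overlap in any of these 3, as in 36.7% of units with all 6 values. The list median was -0.20, -1.05 and -1.28 on arrays A, B and C, so array A held little of it. Turned, 5 fell and 0 rose, at a median of -0.59 against -0.745. The falls numbered 4 without day 0 array B or day 6 array C, and Irf1 was then not called.

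The lists of signalling pathways and of the matrix had called shares between 14.3% and 53.8%, against 24.8% of all units. The TGF-beta and BMP pathway had 25 measured genes, 5 of which rose and 3 of which fell. Turned, the counts were 2 and 3, and the median turned from 0.37 to -0.13. Without day 0 array A or B 3 rose. Tgfbi, a matrix protein gene induced by TGF-beta, stood at 2.83 and 2.40 on day 6 arrays A and B, lacked one on array C, and rose by 3.23 ± 0.55. Tgfbr3, the gene of the coreceptor betaglycan, with no value on day 0 array B, rose by 2.36 ± 0.62, and Fst, the activin antagonist follistatin, fell by 1.64 ± 0.30, from -0.46, 0.03 and -0.22 to -1.72, -2.18 and -1.65. Bmp4, the ligand, was at -1.75 and -2.29 on day 6 arrays A and B with no value on C and fell by 1.89 ± 0.57 (adjusted p = 0.0214), a call lost without array B of either day. Smad3, a signal carrier of TGF-beta, rose by 1.13, and Smad5, one of BMP, rose by 0.78. The BMP target genes Id2 and Id3 stood at -0.30 ± 0.59 and 0.42 ± 0.35 and were not called.

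Of 19 Wnt pathway genes 3 rose and 1 fell (21.1% called, below the 24.8% of all units), and 1 and 1 in the turned setting, with medians of -0.15 and -0.20. Without day 6 array B 4 rose and 3 fell. Fzd1, a Wnt receptor, moved from -1.19, -0.92 and -0.10 to 2.03, 1.74 and 3.06 and rose by 3.01 ± 0.65, and Ctnnb1, the gene of beta-catenin, moved from -0.33, -0.47 and -0.58 to 1.25, 1.16 and 1.11 and rose by 1.63 ± 0.32. The receptor gene Fzd8 fell by 1.23 ± 0.22. Both rises missed the threshold in the turned setting, at 1.54 and 0.71 (adjusted p = 0.106 and 0.129). Of 14 Notch pathway genes 2 rose and 0 fell (14.3% called, likewise below all units). Dtx4, a ubiquitin ligase of the Deltex family, rose by 3.54 ± 0.48, with 4.45 and 3.62 on day 6 arrays B and C and no value on A. Hes6, a modulator of Hes factors, rose by 1.11 with no value on day 6 array B. Turned, 1 Notch gene rose and 1 fell, and 1 rose without day 0 array A or B or day 6 array C. Jag1 had no value on these 6 arrays, and Hes1, Notch2 and Sox9 were not analysed here. Of 16 Hippo pathway genes 2 rose and 3 fell (31.2% called). The falls were Amotl2, an angiomotin gene and TEAD target, by 2.18 ± 0.35, the upstream regulator gene Wwc1 by 1.99 and the transcription factor gene Tead1 by 1.02. Neither rise passed in the turned setting (0 rose, 2 fell), when B of day 0 was left out (0 and 1) or when C of day 6 was (0 and 2), and 1 fell when A of day 0 was left out.

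Proteases of the matrix and their inhibitors had 13 measured genes, with 3 rises and 4 falls, and 1 and 4 in the turned setting. Plat, the gene of tissue plasminogen activator, moved from -0.61, -1.19 and -0.23 to 2.83, 0.72 and 1.09 and rose by 2.23 ± 0.59. Array A was the highest of day 6, but array B was the one that departed from its letter. On the B arrays of days 5 and 7 Plat stood at 3.3 and 3.2, and without day 6 array B its rise was 2.64. Timp3, a metalloprotease inhibitor bound to matrix, moved from -0.79, -0.55 and 0.03 to -2.51, -3.01 and -2.81 and fell by 2.34 ± 0.36. The metalloprotease genes Adam12 and Adam19 rose by 1.48 and 1.12 and Adam9 fell by 1.46; Cemip and Prss23 made up the other falls. Of 12 extracellular matrix protein genes 2 rose, Tgfbi and Olfml3, the latter by 2.89 ± 0.50, and 0 fell (16.7% called, against 24.8% of all units). The turned counts were 2 and 0. Fibroblast markers rose in 5 of 13 on the same arrays, and their part in these changes was not tested.

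Fatty acid oxidation genes were among those that rose. Of 20 genes of fatty acid synthesis and oxidation 7 rose and 1 fell (40.0% called, against 24.8% of all units). Cpt1a, the gate enzyme of fatty acid entry into mitochondria, moved from -0.63, -0.34 and -0.09 to 1.44, 1.35 and 2.69 and rose by 2.18 ± 0.50. Plin2, of the lipid droplet coat, moved from -1.08, -0.94 and 0.11 to 0.99, 1.37 and 0.98 and rose by 1.75 ± 0.30, and the beta-oxidation genes Hadh and Hadhb rose by 1.59 and 1.53. Day 6 array B was the highest for Hadh, at 2.46, and the lowest for Hadhb, at 0.065. Without it their changes were 1.10 and 1.93. Hadhb missed the threshold in the turned setting, at 0.20 (adjusted p = 0.792, limma). Acacb, which makes the malonyl-CoA that inhibits Cpt1a, had no value on day 6 array C and fell by 0.77. The median was 0.77, 0.02 and 0.84 on arrays A, B and C, and 4 rose and 0 fell in the turned setting, at a median of 0.094 against 0.53. Without day 0 array A or B 4 rose and 0 fell as well. Of 24 detoxification and antioxidant genes 4 rose and 6 fell (41.7% called, against 24.8% of all units), and 5 and 6 in the turned setting. Mgst1, a microsomal glutathione transferase, rose by 2.47 ± 0.35, the metallothionein gene Mt1 rose by 2.02, and Aldh1a1, a retinaldehyde dehydrogenase, fell by 2.03. The antioxidant gene Gpx1 fell by 1.25 and the transporter gene Abcc3 fell by 1.57. The list of glycolysis and the hypoxia response held 19 genes, of which 5 rose and 1, P4ha1, fell (31.6% called, against 24.8% of all units). The risers were Ldhb, Bnip3, Bnip3l, Vhl, of the ubiquitin ligase that destroys HIF, by 1.53 and Hif1a, of HIF itself, by 1.35, and Ldhb was the glycolytic enzyme among them. Turned, 4 rose and 1 fell, and the median went from 0.26 to -0.20.

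The large housekeeping lists held fewer calls than all units together, and their arrays disagreed. Of 56 ribosomal protein genes 0 rose and 3 fell (5.4%), and their median change was -0.47, 0.18 and -0.07 on arrays A, B and C. Of 49 oxidative phosphorylation genes 4 rose and 3 fell (14.3%), at -0.59, 0.31 and -0.12. Cycs, the gene of cytochrome c, moved from 0.61, 0.67 and -0.18 to -1.47, -1.82 and -1.57 and fell by 1.98 ± 0.21 (adjusted p = 3.09e-06). For both lists the direction depends on the array and on the sign taken for day 0: turned, the medians were 0.15 for ribosomal proteins (2 rose, 0 fell) and 0.27 for oxidative phosphorylation (5 rose, 2 fell). Of 40 translation factors and tRNA synthetases 3 rose and 4 fell, of 32 proteasome subunits 1 and 4, of 25 cytosolic chaperones 3 and 0, of 25 unfolded protein response genes 2 and 2, and of 11 cholesterol synthesis genes 1 and 1. With day 0 turned, the counts of rises and falls were 1 and 4 for translation, 1 and 5 for the proteasome, 3 and 2 for chaperones, 0 and 6 for the unfolded protein response and 1 and 2 for cholesterol synthesis. The median of the unfolded protein response list went from -0.054 to -0.38. In each of these 5 lists a count moved by more than 1.5 times when 1 array was left out; without day 0 array B they were 1 and 1, 0 and 2, 1 and 0, 2 and 1, and 1 and 0, in the same order.

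Liver markers were thinly covered: only 4 of 41 listed hepatocyte and hepatoblast markers could be tested, which is too few to judge differentiation. H19, an imprinted RNA of fetal liver, stood at 0.03, -0.35 and 0.25 at day 0 and at 2.68, 3.50 and 1.50 at day 6 and rose by 2.59 ± 0.84 (adjusted p = 0.0287). Afp, the gene of alpha-fetoprotein, the main serum protein of fetal liver, moved from -0.37, -0.80 and -0.56 to 0.44, 2.56 and -1.54 and was not called, at 1.06 ± 0.69 (adjusted p = 0.27). Igf2, the fetal growth factor gene, moved from -0.16, -0.41 and -0.32 to 0.82, 2.34 and -1.14, likewise not called, at 0.97 ± 0.59 (adjusted p = 0.236). All 3 were highest on array B and lowest on array C of day 6, where Afp and Igf2 lay below every day 0 array. Without array C of day 6, Afp and Igf2 stood at 2.07 and 1.87 and passed (adjusted p = 0.0245 and 0.0147). The rise of H19 missed the threshold without day 6 array A or B or without day 0 array A or B; without day 6 array B it stood at 2.12 (adjusted p = 0.0985). Apob, of the lipoprotein apolipoprotein B, stood at 0.19 ± 0.18. Ttr had no value on these 6 arrays, and Alb and Hnf4a were not analysed here.

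**Figure D3:**
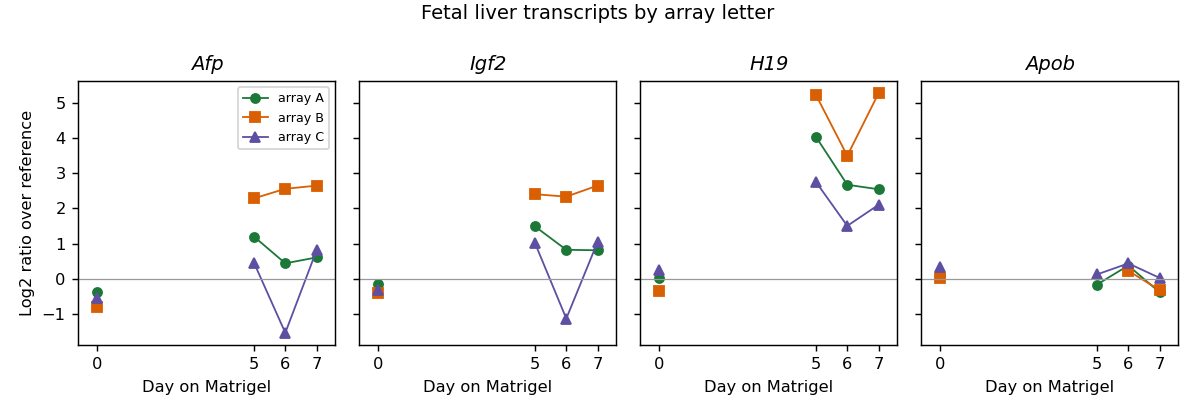
Log2 ratio over the undifferentiated reference (y axis) by day on Matrigel (x axis) for Afp, Igf2, H19 and Apob on arrays A, B and C of days 0, 5, 6 and 7; lines join arrays of the same letter over days 5 to 7. Array C of day 6 lies at -1.54 for Afp and -1.14 for Igf2, below array C of days 5 and 7, while array B lies highest of day 6 for Afp, Igf2 and H19.

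Of 26 listed bile duct markers 5 were measured, with changes above 0 in 3 and below 0 in 2. Of these 1 rose and 0 fell (20.0% called, against 24.8% of all units), and without day 0 array C 1 rose and 1 fell. The riser, Anxa4, an annexin gene, moved from -0.07, -0.21 and 0.03 to 0.96, 1.42 and 1.38, by 1.33 ± 0.21 (adjusted p = 0.000262, limma). Bicc1, an RNA-binding protein gene of ducts and tubules, stood at 1.17, 1.92 and -0.41 at day 6 and was not called. Krt19, the defining duct keratin, had no value on the day 6 arrays.

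Markers of fibroblasts, the cell type of feeder layers, stood higher in part. Of 13 measured 5 rose and 0 fell (38.5%, against 12.2% higher over all units), and 3 rose when either B of day 0 or A of day 6 was left out. The mean log ratio over the list lay between -0.683 and 0.103 on the day 0 arrays and between -0.146 and 0.797 on the day 6 arrays, lowest on array B. Dcn is described above. Pdgfrb, a growth factor receptor of mesenchymal cells, moved from -0.88, -0.32 and 0.40 to 1.49, 1.24 and 2.18 and rose by 1.90 ± 0.45. The others were Col6a1, Loxl1 and Prrx1, with rises of 1.43, 1.18 and 0.94, the last with no value on day 6 array C. The collagen genes Col1a2 and Col3a1, abundant in fibroblasts, stood at 0.63 and 0.68 and were not called; on day 6 array B they lay at -0.94 and -1.04. In the turned setting 3 markers rose and 1 fell, at a median of -0.21. A change in the number of cells of a type and a change in RNA per cell cannot be told apart in such samples. The part of fibroblasts in other changes was not tested. Of 3 blood cell markers Tyrobp, a signalling adaptor of myeloid cells, rose by 2.39 ± 0.58 with no value on day 0 array C, while Lyz2 and Hba-a1 stood at 0.27 and 0.11. Of 2 smooth muscle markers and 1 endothelial marker 0 passed.

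Day 6 did not stand off from its neighbouring days by a single unit past the threshold. Against the mean of days 5 and 7, 0 of 10639 units passed (0.0%; limma), with 759 at an unadjusted p under 0.05 and a smallest adjusted p of 0.623. Against day 5 alone the counts were 0 (0.0%) and 448, with a smallest adjusted p of 0.999, and against day 7 alone 0 (0.0%) and 643, with 0.789. A count of 0 does not show that the days are alike. Without the C arrays of days 4, 5 and 7, which enter both the spread and the means compared, 401 units passed against the mean of days 5 and 7, and 0 passed without the C array of day 5 or of day 7 alone. Without day 6 array A 57 units passed.

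Array B of day 6 differed from the B arrays of the days around it more than arrays A and C did from theirs. It was set apart beforehand for its deviation from the B arrays of days 5 and 7. The values below describe that known deviation and are no separate result. Across single features, array A of day 6 correlated with array A of days 5 and 7 at 0.828 and 0.889, and array C with its own at 0.862 and 0.808. Array B correlated with its own at 0.57 and 0.575, although the B arrays of days 5 and 7 correlated with each other at 0.918. Over units, the difference between a day 6 array and the mean of the same-letter arrays of days 5 and 7 had an SD of 0.327 on array A, 0.821 on B and 0.567 on C. It exceeded 1 in either direction in 0.7%, 21.4% and 7.8% of units. Of 7819 units with all 9 values, 13 stood more than 2 higher and 112 more than 2 lower on array B while both other letters lay within 0.75; the counts were 0 and 0 for array A and 13 and 7 for array C.

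**Figure D4:**
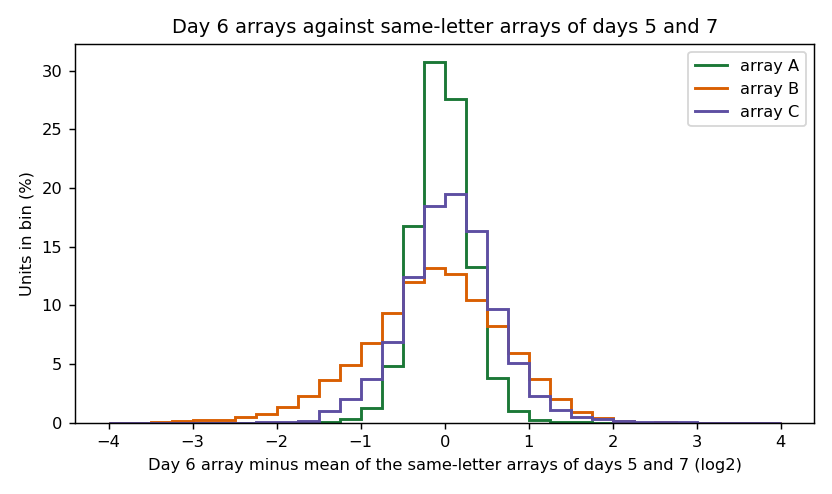
Share of units (y axis, percent) by the difference between a day 6 array and the mean of the same-letter arrays of days 5 and 7 (x axis, log2), for arrays A, B and C. The distribution of array B, with an SD of 0.821, is the widest and reaches further to the left than to the right, and that of array A, with 0.327, is the narrowest.

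Of those 112 units 42 were named genes, and these are named for their distance, after their values were seen. Orc6, of the origin recognition complex, stood at -0.75, -4.01 and -0.70 at day 6 and at -0.75, -0.55 and -0.91 at day 5, and it fell by 1.75 from day 0, when it stood at -0.63, -0.05 and 0.48. Array B lay far below the lowest day 0 array, and arrays A and C just below it. Tjp1, the gene of the tight junction protein ZO-1, stood at -0.33, -3.18 and -0.41 at day 6 and -0.25, -0.70 and 0.42 at day 7. Acadm, of medium-chain fatty acid oxidation, stood at 1.29, -1.17 and 0.82 at day 6 and 1.18, 1.34 and 1.14 at day 5. Eif3m, a translation factor subunit, stood at 0.22, -2.51 and 0.59, and Sdhd, of mitochondrial complex II, at -0.32, -2.40 and -1.12. In each of these array B alone was far below its own letter on the neighbouring days. Ptges3, a cochaperone gene, was among the 6 genes higher on array B, at -1.04, 1.46 and -3.87 against -0.68, -1.37 and -4.29 at day 5.

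The calls against day 0 were set beside array B as well. Of 2292 called units with all 3 day 6 values, 2286 had the same sign on arrays A, B and C, and in 2 array B alone had the opposite sign. A call asks for arrays that agree, so this describes the called units. Over all units with these values the same sign was shared by 5072 of 8897 (57.0%), and array B alone was opposite in 1693, array A alone in 1258 and array C alone in 874. Without day 6 array B 2865 units passed, and 2139 of them, in the same direction, were among the 2642 (81.0% of those). Of the 112 named genes that passed, 103 also passed without it.

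Across units, the difference of day 6 array B from the B arrays of days 5 and 7 went with differences between day 0 arrays. Its correlation with day 0 array A minus array C was 0.508 over 8313 units, against 0.117 for day 6 array A and -0.283 for day 6 array C. With day 0 array B minus array C it was 0.484 over 8234 units, against 0.051 and -0.213. The units share arrays and are no independent replicates. The day 0 arrays held no cells kept on Matrigel. Whether what separates day 0 array C from arrays A and B has a part in the values of day 6 array B was not tested.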

How the data were processed

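Log ratios of 24157 features on 24 arrays of 2 colours, likely log2 of Cy5 over Cy3, were deposited by the authors. For their scale, centring and direction, the scanner, the background correction and the normalization, the status is: not given in the sources used here. Column medians as deposited were 0.0118, -0.0052 and 0.0005 for arrays A, B and C of day 0, 0.010, 0.0094 and 0.005 for day 1, 0.0027, -0.0025 and -0.0022 for day 2, -0.0034, 0.0083 and 0.0027 for day 3, 0.0073, -0.0086 and 0.0065 for day 4, -0.0044, -0.0121 and 0.0171 for day 5, 0.0295, 0.0151 and 0.0094 for day 6, and 0.0137, -0.0253 and 0.0075 for day 7. The number of arrays, 3 a day, limits the precision.

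Gene symbols came from the platform annotation: of 13908 features listed, 13319 had 1 symbol, 589 had several and stayed unnamed, as did 10249 not listed. Symbols were updated for 13290 features through Entrez identifiers in a mouse gene table of assembly GRCm38.p6, 29 kept theirs, and 8315 symbols resulted. Arrays were centred on their median and features of a symbol averaged. Of 19153 units with a value, 10639 had values on at least 2 arrays of each of the 8 days (5660 genes and 4979 unnamed features). Means of the 8 days were fitted over all arrays with limma 3.58.1 in R 4.3.3 (lmFit, eBayes; 2-sided, Benjamini-Hochberg within a comparison, threshold 0.05). The fit was tested on simulated data first.

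Genes named were the 10 largest rises and falls past the threshold with all 6 values and no overlap between days, up to 4 called members of each of 34 lists, taken in order of size, and 24 further fixed genes. Other list members were named after their values were seen. The comparison, members and lists were chosen with earlier results of these data known, so lists carry counts and medians and no set test. To see whether letters pair arrays, deviations from day means were correlated. Between days 0 and 6 the values were -0.187, 0.291 and 0.262 for A, B and C, which does not settle it. The 9 same-letter pairs within days 5 to 7 gave 0.142 to 0.898, so letters pair those arrays. The pairing was weakest for array B of day 6 (0.142 and 0.244). Alternatives were the scaling and centring of arrays, the filter, the arrays and days in the fit, the sign of day 0 ratios, and the letter as a block.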

Additional observations from a re-analysis of the deposited data

How the results depend on the processing

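Against day 0, 2642 units passed, and 2257 to 3761 did under the other settings except the following. With only days 0 and 6 in the fit the count was 1449. Leaving out 1 array of day 0 or 6 gave 1531 to 2865, lowest without day 0 array B, and the count was 1799 without day 0 array A, 1764 without day 6 array C and 1776 with every day 0 ratio turned in sign. Set against the reference channel instead of day 0 it was 3877 (1820 higher, 2057 lower). In none of the settings fitted on these same units did a unit of the 2642 pass in the opposite direction (0 units). Whether letters pair the arrays of days 0 and 6 is not settled. The A arrays deviated against each other (-0.187), and the B and C arrays deviated together (0.291 and 0.262). The array letter as a replicate block gave 3360 calls. For days 5 to 7, where letters pair the arrays, the blocked fit of these days left all 3 comparisons at 0 calls, with 834, 532 and 684 units at an unadjusted p under 0.05 against the mean of days 5 and 7, day 5 and day 7. These fits, and the one without the B arrays of days 5, 6 and 7 (0 calls), were chosen after seeing the data. Without the C arrays of days 4, 5 and 7, 401, 81 and 1 units passed in these comparisons. Leaving out 1 array gave 0 to 57, 0 to 6 and 0 to 47, highest without day 6 array A each time. The cause was not tested. Of 112 named genes that passed against day 0, 67 still did with all day 0 signs turned, 87 to 103 without 1 array, 91 with only days 0 and 6, and 111 against the reference channel. None of them (0) changed sign. Afp, not called, reversed from 1.06 to -0.091 with all day 0 signs turned. The direction of the ratios cannot be told from the values, and no setting turned the ratios of all arrays, which would reverse every change. The kept signs therefore do not bear on that direction. Signal over background is not known for these arrays.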
